A study of Homo sapiens with 8 samples.

Results

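The 42 genes described here are type I interferon-stimulated antiviral genes, taken by symbol from the deposited count table. All 42 symbols were found among the 58735 genes of the table, and all 42 passed the low-count filter that left 17413 genes for testing. The libraries came from SV-HUC1, an established human urothelial cell line immortalised with SV40, so every culture of both groups carries that virus's transforming region. The 4 glucose oxidase cultures received the enzyme, which releases hydrogen peroxide as it oxidises glucose, at 20 mU/ml for 24 h, and the 4 control cultures were left untreated. No group received peroxide itself or an inactive enzyme. Both groups are cultures of a single cell line, and the series' design text speaks of independent experiments without tying equal replicate numbers to a shared experiment. Total counts per library ran between 21437267 and 27183692 with glucose oxidase and between 21653952 and 23543702 in controls, and the 42 genes took 1.187 to 1.385% of counts with glucose oxidase and 0.8583 to 1.28% in controls. In both groups replicates 1 and 2 stood apart from replicates 3 and 4 in their expression values. That division is not in the labels, and counts of called genes are therefore given also with a term for it.

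Interferon-stimulated genes are the effector arm of the innate antiviral response. Cytosolic RNA sensors of the RIG-I family trigger the production of type I interferons, which bind their receptor, activate the kinases JAK1 and TYK2 and lead to the assembly of ISGF3, a complex that includes STAT2 and IRF9. ISGF3 binds interferon-stimulated response elements in the promoters of genes that degrade viral RNA, block its translation, trap virions or tag proteins with ISG15. Many epithelial lines hold a basal level of these transcripts without added interferon.

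The core of the response element, GAAANNGAAA on one strand or TTTCNNTTTC on the other, was sought on both strands in the 250 bases upstream of the RefSeq transcript starts (build GRCh38.p14). Promoter entries were matched for 34 of the 42 genes, 33 by symbol and DDX58 under its newer symbol RIGI. DHX58, IRF7, OAS2, OASL, MX2, IFIT2, USP18 and TRIM22 had no entry. At least 1 match stood in 20 of the 34 genes (58.8%), against 1014 of all 27305 genes with an entry (3.71%). Among the 11 genes with an entry that passed the test with glucose oxidase described below, 4 held a match (36.4%), and among the 23 that did not pass, 16 did (69.6%). The letters were thus found at a lower share among the genes with an entry that passed, and no test was made of that difference. Of the genes without an entry, DHX58, OAS2, OASL, MX2, IFIT2 and USP18 passed, and IRF7 and TRIM22 did not. The missing entries thus fall mostly on genes that passed, and repeats with another spacing were not sought. These shares therefore do not compare the promoters of all 42 genes. The 200 bases before the start are printed to show where the letters stand, and a match of letters does not by itself mark a working element. They are given first for the 4 genes that passed and hold a match: IFIH1 (chr2:162318685-162318884, minus strand), OAS3 (chr12:112938274-112938473, plus strand), MX1 (chr21:41431850-41432049, plus strand) and ISG20 (chr15:88638816-88639015, plus strand). Those of the 4 genes with the highest control level per length, none of which passed, follow for comparison: IFI6 (chr1:27672193-27672392, minus strand), BST2 (chr19:17405631-17405830, minus strand), ISG15 (chr1:1013297-1013496, plus strand) and IFI27 (chr14:94110536-94110735, plus strand). Capitals mark bases inside a match, adjoining or overlapping matches run together, and each sequence reads 5′ to 3′ on the gene's strand. MX1 and IFI27 each have more than 1 RefSeq start, and the printed window belongs to 1 of them. A gene counted as holding a match when any of its windows held one. The MX1 match begins 196 bases before the start of its window. The windows of the other MX1 starts held 0 matches of the spacing sought, while the other IFI27 window held 2.
IFIH1: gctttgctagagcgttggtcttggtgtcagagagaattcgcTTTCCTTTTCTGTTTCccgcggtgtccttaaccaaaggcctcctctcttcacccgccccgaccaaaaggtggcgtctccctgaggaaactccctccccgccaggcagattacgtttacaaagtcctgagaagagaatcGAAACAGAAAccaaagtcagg
OAS3: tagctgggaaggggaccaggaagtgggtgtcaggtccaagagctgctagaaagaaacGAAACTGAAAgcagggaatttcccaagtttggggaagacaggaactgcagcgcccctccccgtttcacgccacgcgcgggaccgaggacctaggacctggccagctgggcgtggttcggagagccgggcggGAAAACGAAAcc
MX1: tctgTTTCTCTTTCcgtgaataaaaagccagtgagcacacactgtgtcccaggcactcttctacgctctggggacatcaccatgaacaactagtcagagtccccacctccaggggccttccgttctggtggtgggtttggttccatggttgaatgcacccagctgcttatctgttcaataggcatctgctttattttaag
ISG20: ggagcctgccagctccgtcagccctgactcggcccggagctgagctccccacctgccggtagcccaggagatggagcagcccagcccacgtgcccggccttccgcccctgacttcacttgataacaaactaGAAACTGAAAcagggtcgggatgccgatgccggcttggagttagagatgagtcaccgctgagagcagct
IFI6: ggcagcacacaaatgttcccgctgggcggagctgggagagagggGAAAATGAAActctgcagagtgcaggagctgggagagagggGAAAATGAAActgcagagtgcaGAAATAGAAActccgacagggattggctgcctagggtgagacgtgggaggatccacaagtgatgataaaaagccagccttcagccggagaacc
BST2: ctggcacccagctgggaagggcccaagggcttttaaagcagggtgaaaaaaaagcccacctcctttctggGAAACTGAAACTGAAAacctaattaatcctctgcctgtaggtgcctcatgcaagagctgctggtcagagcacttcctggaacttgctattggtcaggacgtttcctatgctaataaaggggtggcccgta
ISG15: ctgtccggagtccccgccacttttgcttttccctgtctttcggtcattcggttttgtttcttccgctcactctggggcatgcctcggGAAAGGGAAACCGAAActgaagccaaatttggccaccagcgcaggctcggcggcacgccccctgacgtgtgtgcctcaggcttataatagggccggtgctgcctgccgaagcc
IFI27: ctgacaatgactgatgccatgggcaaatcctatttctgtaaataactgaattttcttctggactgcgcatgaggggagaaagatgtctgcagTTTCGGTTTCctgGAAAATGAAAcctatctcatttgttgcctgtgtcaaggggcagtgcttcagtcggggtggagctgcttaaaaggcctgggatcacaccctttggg

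After glucose oxidase all 3 RNA sensors, all 4 oligoadenylate synthetase genes and both Mx genes rose, when replicate number was fitted as a block, by log2 changes of 0.46 (DDX58) to 1.10 (MX2). STAT2, IFIT2, USP18, DTX3L, CMPK2, ISG20, SP110 and XAF1 rose with them. ISG15 itself did not pass, nor did any of the 5 IFI genes, which for so few genes is near the share of all genes called, given below. With group as the only term no gene passed in edgeR. Levels are given as TMM-normalised CPM, which correct each count for library size, with replicates in the order 1 to 4, and changes as log2 of glucose oxidase over control. With group as the only term in edgeR's quasi-likelihood test, none of the 42 genes passed an adjusted p of 0.05, and none of the 17413 genes tested did (0%). At an unadjusted p under 0.05 that fit held 6 of the 42 (14.3%), against 7.37% of all genes, and DESeq2 without a block called OAS2 alone, against 0.173% of all genes called higher. With the replicate number as a block, 17 of the 42 were called higher (40.5%) and 0 lower, against 7.51% of all genes called higher and 6.97% called lower. In what follows "rose", "fell" and "passed" refer to that blocked fit, and the 25 other genes are given as values. When the block was replaced by a single term separating the 2 replicate sets, here called the set term, 9 of the 17 were still called higher (IFIH1, OAS2, OAS3, MX1, MX2, DTX3L, CMPK2, SP110 and XAF1) and 0 of the 42 lower, against 3.72% and 3.07% of all genes. DESeq2 with the block called 19 of the 42 higher and 1 lower, against 8.09% and 8.69% of all genes, and edgeR with the block on total counts called 21 higher and 0 lower, against 9.62% and 3.07%. The blocked count was 13 without replicate 1 (against 5.33% of all genes tested then), 18 without replicate 2 (against 5.02%), 7 without replicate 3 (against 3.34%) and 7 without replicate 4 (against 5.51%).

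Across the list the median log2 change was 0.36, against -0.0068 over all genes tested, and 36 of the 42 estimates were above 0, against 49.3% of all genes. In 5 genes, OAS1, OAS2, USP18, PARP14 and CMPK2, all 4 glucose oxidase libraries lay above all 4 controls (11.9%, against 2.42% of all genes). In 1 gene, IFI27, all 4 lay below (2.38%, against 2.6% of all genes). Compared with the control of the same number, 19 genes were higher in all 4 pairs (45.2%, against 16.9%), and IFI27 alone was lower in all 4 (against 17.1%). Of the 17 genes that rose, 14 were higher in all 4 pairs. DHX58 and OASL were lower in pair 2, and ISG20 was lower in pair 1.

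**Figure D1:**
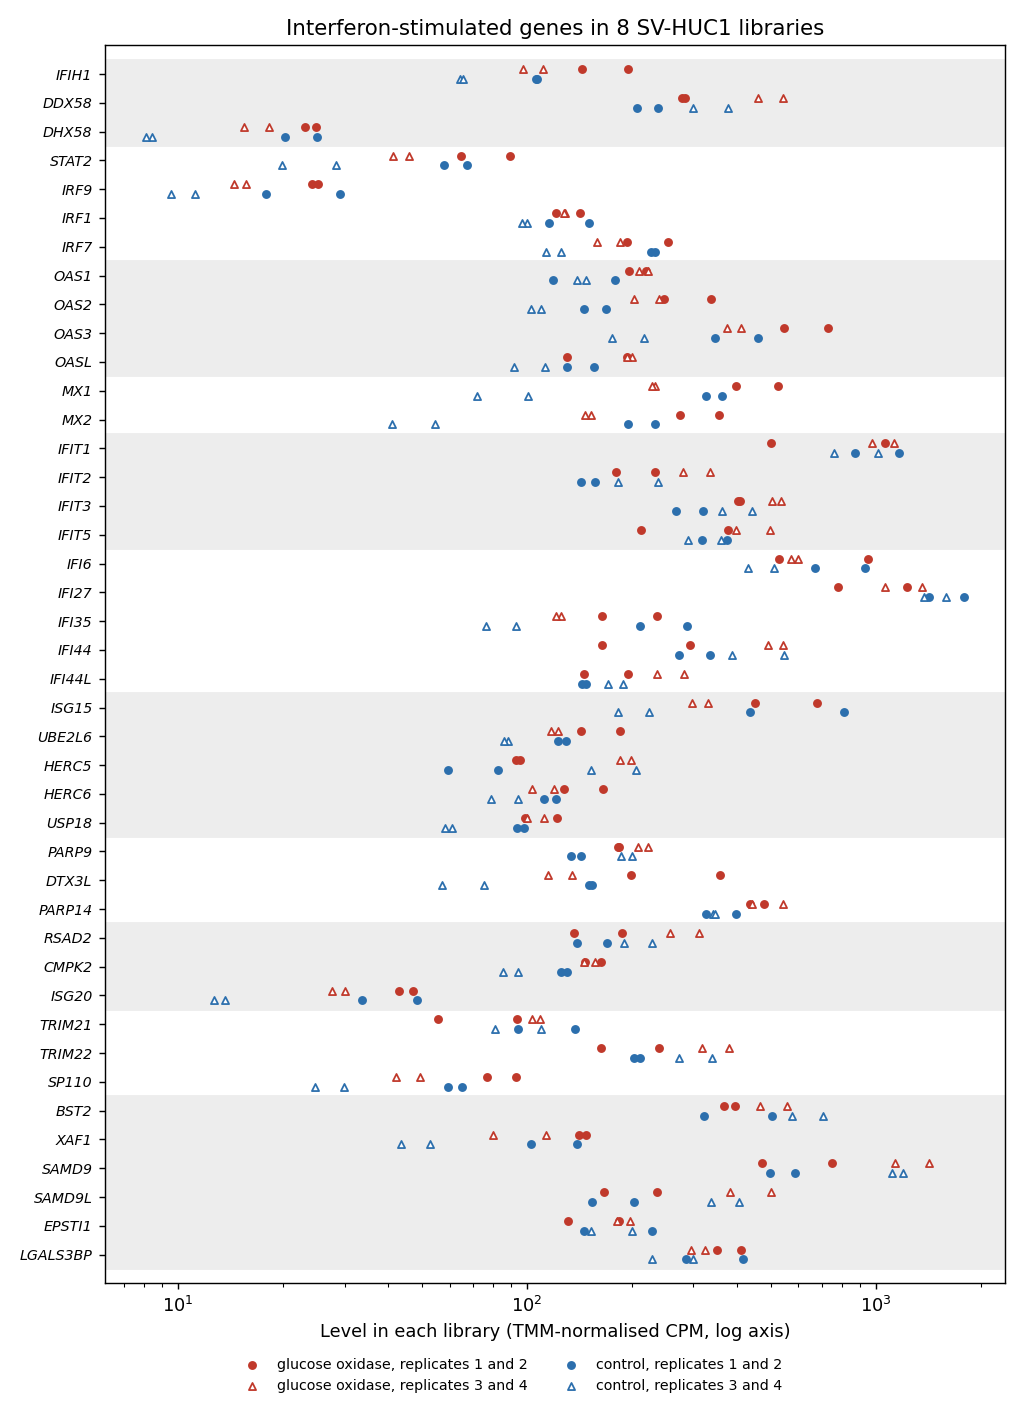
Level of each of the 42 genes in each library, as TMM-normalised CPM on a log axis, grouped by role in bands. Filled circles are replicates 1 and 2 and open triangles replicates 3 and 4, red with glucose oxidase and blue in controls; the gap between circles and triangles within a group is often wider than the gap between groups, as for MX1 and MX2.

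All 3 RNA sensors rose. IFIH1, which encodes the double-stranded RNA sensor MDA5, had 144, 195, 111 and 97.5 CPM with glucose oxidase, against 107, 106, 64.4 and 65.4 CPM in controls. Its treated libraries were higher than the control of the same number in every pair, but the groups overlap because controls 1 and 2 lie near treated replicates 3 and 4. The log2 change was 0.67 ± 0.14 (SE; adjusted p = 0.00268), and it passed with the set term too (adjusted p = 0.0130). DHX58, which encodes LGP2, a regulator of the other sensors, had 24.8, 23.1, 18.2 and 15.5 CPM with glucose oxidase, against 20.3, 25.0, 8.41 and 8.07 CPM in controls, a log2 change of 0.53 ± 0.17 (SE; adjusted p = 0.0371). Here controls 3 and 4 were the lowest of the 8 libraries, and treated replicate 2 was below control 2. DDX58, which encodes RIG-I, averaged 391 ± 131 CPM with glucose oxidase and 280.1 ± 74.9 CPM in controls (SD, n = 4 each), a log2 change of 0.46 ± 0.15 (SE; adjusted p = 0.0438). With the set term neither DHX58 (adjusted p = 0.0834) nor DDX58 (adjusted p = 0.0900) passed.

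Of the 4 transcription factor genes only STAT2 passed. STAT2, the ISGF3 subunit that carries its main activation domain, had 64.5, 89.1, 45.9 and 41.4 CPM with glucose oxidase, against 57.7, 67.4, 19.9 and 28.3 CPM in controls. The 2 lowest libraries were controls 3 and 4, and the treated values overlapped with controls 1 and 2. Its log2 change was 0.57 ± 0.15 (SE; adjusted p = 0.0134), with an adjusted p of 0.0508 under the set term. IRF9, the DNA-binding subunit of ISGF3, averaged 19.9 ± 5.59 CPM with glucose oxidase and 16.9 ± 8.87 CPM in controls, a log2 change of 0.32 ± 0.16 (SE; adjusted p = 0.177). IRF7, which drives interferon alpha genes, had a log2 change of 0.24 ± 0.16 (SE; adjusted p = 0.350), and IRF1, which is induced by interferon gamma and other cytokines, one of 0.19 ± 0.14 (SE; adjusted p = 0.429). Counts assigned to an overlapping same-strand gene equalled 17.1% of those of IRF9, and counts of an opposite-strand gene equalled 12.1% of those of IRF1.

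All 4 members of the oligoadenylate synthetase family rose. The enzymes OAS1, OAS2 and OAS3 make the short adenylate chains that switch on RNase L, while the related protein OASL lacks that activity and acts on RIG-I signalling. OAS2 had 247, 337, 239 and 203 CPM with glucose oxidase, against 146, 168, 103 and 109.9 CPM in controls. The lowest treated library was above the highest control, and the log2 change was 0.97 ± 0.15 (SE; adjusted p = 0.000132), the smallest adjusted p of the 42 genes. OAS2 also had the smallest adjusted p of the list without a block (0.561), in the set-term fit (0.00307) and in the authors' deposited table, where it was the only one of the 42 under 0.05 (log2 fold change 0.96, adjusted p 0.0202).

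OAS3 had 547, 729, 409.7 and 375 CPM with glucose oxidase, against 347, 459, 175 and 216 CPM in controls. All pairs were higher with glucose oxidase but controls 1 and 2 overlapped with treated replicates 3 and 4, and the log2 change was 0.83 ± 0.16 (SE; adjusted p = 0.00118). OAS1 had 219, 196, 209 and 222 CPM with glucose oxidase, against 119, 179, 147 and 139.5 CPM in controls. Its treated libraries lay close together and above every control, with a log2 change of 0.55 ± 0.15 (SE; adjusted p = 0.0163). OASL had 194, 130.1, 200.1 and 193 CPM with glucose oxidase, against 130.0, 156, 113 and 91.7 CPM in controls. Treated replicate 2 was level with control 1 and below control 2, while the other 3 treated libraries were above every control, and the log2 change was 0.56 ± 0.17 (SE; adjusted p = 0.0294). With the set term OAS3 passed (adjusted p = 0.0129), while OAS1 (adjusted p = 0.0508) and OASL (adjusted p = 0.0731) did not.

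Both Mx genes rose, and MX2 had the largest fitted change of the 42. These genes encode dynamin-like GTPases, of which MX1 acts on many RNA viruses and MX2 on retroviruses and herpesviruses. MX2 had 275, 355, 153 and 147 CPM with glucose oxidase, against 195, 233, 41.1 and 54.6 CPM in controls, a log2 change of 1.10 ± 0.19 (SE; adjusted p = 0.000373). Within each replicate set the treated libraries were above the controls, yet the groups overlap because controls 1 and 2 were higher than treated replicates 3 and 4. MX1 had 397, 526, 233 and 228 CPM with glucose oxidase, against 363, 326, 71.8 and 101 CPM in controls, a log2 change of 0.92 ± 0.19 (SE; adjusted p = 0.00194). For MX1 too controls 1 and 2 were above treated replicates 3 and 4. Both genes passed with the set term (adjusted p = 0.00736 for MX2 and 0.0172 for MX1).

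Of the 4 IFIT genes, whose products bind viral RNA and block its translation, 1 rose. IFIT2 had 233, 181, 334 and 280.1 CPM with glucose oxidase, against 157, 143, 238 and 183 CPM in controls, a log2 change of 0.50 ± 0.15 (SE; adjusted p = 0.0211), and did not pass with the set term (adjusted p = 0.0633). Each treated library was above the control of its number, but controls 3 and 4 overlapped with treated replicates 1 and 2. IFIT3, which stabilises IFIT1 on RNA, averaged 463 ± 67.1 CPM with glucose oxidase and 348 ± 73.7 CPM in controls, a log2 change of 0.42 ± 0.16 (SE; adjusted p = 0.0638). IFIT1, which recognises RNA caps that lack ribose methylation, averaged 916 ± 283 CPM with glucose oxidase and 953 ± 177 CPM in controls, a log2 change of -0.10 ± 0.19 (SE; adjusted p = 0.771), and IFIT5 had a log2 change of 0.09 ± 0.17 (SE; adjusted p = 0.797). LIPA overlaps IFIT2, IFIT3 and IFIT1 on the opposite strand, and its counts equalled 60.7%, 32.9% and 14.2% of theirs. Whether featureCounts used strand is not stated in the labels or files, so reads shared by these genes may or may not have been separated.

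None of the 5 IFI genes passed, against 7.51% of all genes called higher and 6.97% called lower. With so few genes, none passing is near that share. The 5 include some of the transcripts with the highest level per length among the 42 genes. IFI6 encodes a small membrane protein of mitochondria and endoplasmic reticulum, IFI27 a mitochondrial protein, and IFI35 a partner of the signalling protein NMI. IFI27 had 1230.1, 779, 1061 and 1357 CPM with glucose oxidase, against 1790.1, 1422, 1591 and 1376 CPM in controls. It was the 1 gene with every treated library below every control, treated replicate 4 lying just under control 4, with a log2 change of -0.50 ± 0.18 (SE; adjusted p = 0.0579). DESeq2 with the replicate block called it lower (-0.51, adjusted p = 0.00807). IFI6 averaged 753 ± 223 FPKM with glucose oxidase and 722 ± 242 FPKM in controls, a log2 change of 0.08 ± 0.17 (SE; adjusted p = 0.804). IFI44L, IFI35 and IFI44 had log2 changes of 0.37 ± 0.15 (SE; adjusted p = 0.102), 0.11 ± 0.17 (SE; adjusted p = 0.726) and -0.15 ± 0.17 (SE; adjusted p = 0.620). The estimate for IFI35 was -0.05 without a block, and that of IFI44 turned positive with scaling to total counts without a block.

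In the ISG15 pathway 1 of 5 genes rose, USP18. ISG15 is a ubiquitin-like protein, UBE2L6 the enzyme that conjugates it, HERC5 the main human ligase and HERC6 its relative, while USP18 strips ISG15 from proteins and also blocks the interferon receptor. USP18 had 122, 98.4, 112 and 100.3 CPM with glucose oxidase, against 98.1, 93.6, 60.8 and 58.2 CPM in controls, a log2 change of 0.51 ± 0.15 (SE; adjusted p = 0.0232). Every treated library was above every control, with treated replicate 2 just over control 1, and the adjusted p under the set term was 0.0574. UBE2L6 averaged 142 ± 30.6 CPM with glucose oxidase and 107 ± 22.6 CPM in controls, higher in all 4 pairs, a log2 change of 0.41 ± 0.14 (SE; adjusted p = 0.0516) that passed in DESeq2 with the block (adjusted p = 0.0192). ISG15 itself had 680.2, 452, 298 and 331 CPM with glucose oxidase, against 811, 437, 223 and 182 CPM in controls, a log2 change of 0.27 ± 0.17 (SE; adjusted p = 0.334). The highest and the lowest ISG15 values were both in controls. HERC6 and HERC5 had log2 changes of 0.35 ± 0.15 (SE; adjusted p = 0.113) and 0.27 ± 0.15 (SE; adjusted p = 0.229).

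DTX3L, an E3 ligase, works in a complex with PARP9, and PARP14 is an ADP-ribosyltransferase encoded nearby. DTX3L had 199, 359, 135 and 115 CPM with glucose oxidase, against 150.3, 154, 57.0 and 75.4 CPM in controls, a log2 change of 0.87 ± 0.16 (SE; adjusted p = 0.000851). Treated replicate 2 was the highest of the 8 libraries and controls 3 and 4 the lowest, with overlap between the groups, and the gene passed with the set term (adjusted p = 0.00957). PARP14 had 435, 479.9, 541 and 442 CPM with glucose oxidase, against 327, 399, 341 and 346 CPM in controls. All of its treated libraries were above all controls, yet its log2 change of 0.42 ± 0.16 (SE; adjusted p = 0.0666) did not pass, while DESeq2 with the block called it (adjusted p = 0.0102). PARP9 averaged 199 ± 19.9 CPM with glucose oxidase and 166 ± 31.9 CPM in controls, higher in all 4 pairs, a log2 change of 0.28 ± 0.15 (SE; adjusted p = 0.203). PARP9 and DTX3L overlap at their starts on opposite strands, which leaves the assignment of reads there uncertain.

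Among the effectors that act on nucleotides and nucleic acid, CMPK2 and ISG20 rose. CMPK2, a mitochondrial nucleotide kinase, had 163, 147, 156 and 146 CPM with glucose oxidase, against 130.1, 125, 94.0 and 85.4 CPM in controls, a log2 change of 0.51 ± 0.15 (SE; adjusted p = 0.0193). The treated libraries were close together and above every control, and the gene passed with the set term (adjusted p = 0.0472). ISG20, an exonuclease that degrades single-stranded RNA, had 47.0, 43.0, 30.1 and 27.7 CPM with glucose oxidase, against 48.4, 33.7, 13.6 and 12.6 CPM in controls, a log2 change of 0.63 ± 0.17 (SE; adjusted p = 0.0132), with an adjusted p of 0.0587 under the set term. Control 1 was the highest ISG20 library, and controls 3 and 4 the lowest. RSAD2, the neighbour of CMPK2 on the opposite strand, encodes viperin, which makes a chain-terminating nucleotide. It overlaps the start of CMPK2 and averaged 223 ± 76.9 CPM with glucose oxidase and 182 ± 37.4 CPM in controls, a log2 change of 0.25 ± 0.15 (SE; adjusted p = 0.285).

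Among the TRIM and SP100 family members SP110, a nuclear body protein, rose. SP110 had 76.6, 93.0, 49.2 and 42 CPM with glucose oxidase, against 64.9, 59.2, 24.6 and 29.9 CPM in controls, a log2 change of 0.59 ± 0.15 (SE; adjusted p = 0.00726) that also passed with the set term (adjusted p = 0.0234). Every pair was higher with glucose oxidase, and the groups overlap between treated replicates 3 and 4 and controls 1 and 2. TRIM21, a cytosolic antibody receptor, averaged 90.5 ± 24.1 CPM with glucose oxidase and 106 ± 24.1 CPM in controls, a log2 change of -0.24 ± 0.16 (SE; adjusted p = 0.349). TRIM22, a restriction factor of several viruses, had a log2 change of 0.06 ± 0.15 (SE; adjusted p = 0.844), and counts of TRIM5 on the opposite strand equalled 12.6% of its own.

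Of the 6 remaining effectors 1 rose. XAF1, a pro-apoptotic partner of XIAP, had 141, 148, 113 and 80.1 CPM with glucose oxidase, against 103, 139, 43.5 and 52.6 CPM in controls, a log2 change of 0.63 ± 0.17 (SE; adjusted p = 0.0120), and passed with the set term (adjusted p = 0.0472). Controls 3 and 4 were the lowest libraries, and controls 1 and 2 lay within the treated range. The others ran between a log2 change of -0.20 ± 0.17 (SE; adjusted p = 0.466) for BST2, the tetherin that holds budding virions at the membrane, and 0.21 ± 0.16 (SE; adjusted p = 0.434) for SAMD9L. SAMD9, a restriction factor of poxviruses and the relative of SAMD9L, had 0.14 ± 0.18 (SE; adjusted p = 0.656), EPSTI1 -0.06 ± 0.15 (SE; adjusted p = 0.838) and LGALS3BP, a secreted galectin ligand, 0.19 ± 0.15 (SE; adjusted p = 0.436).

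**Figure D2:**
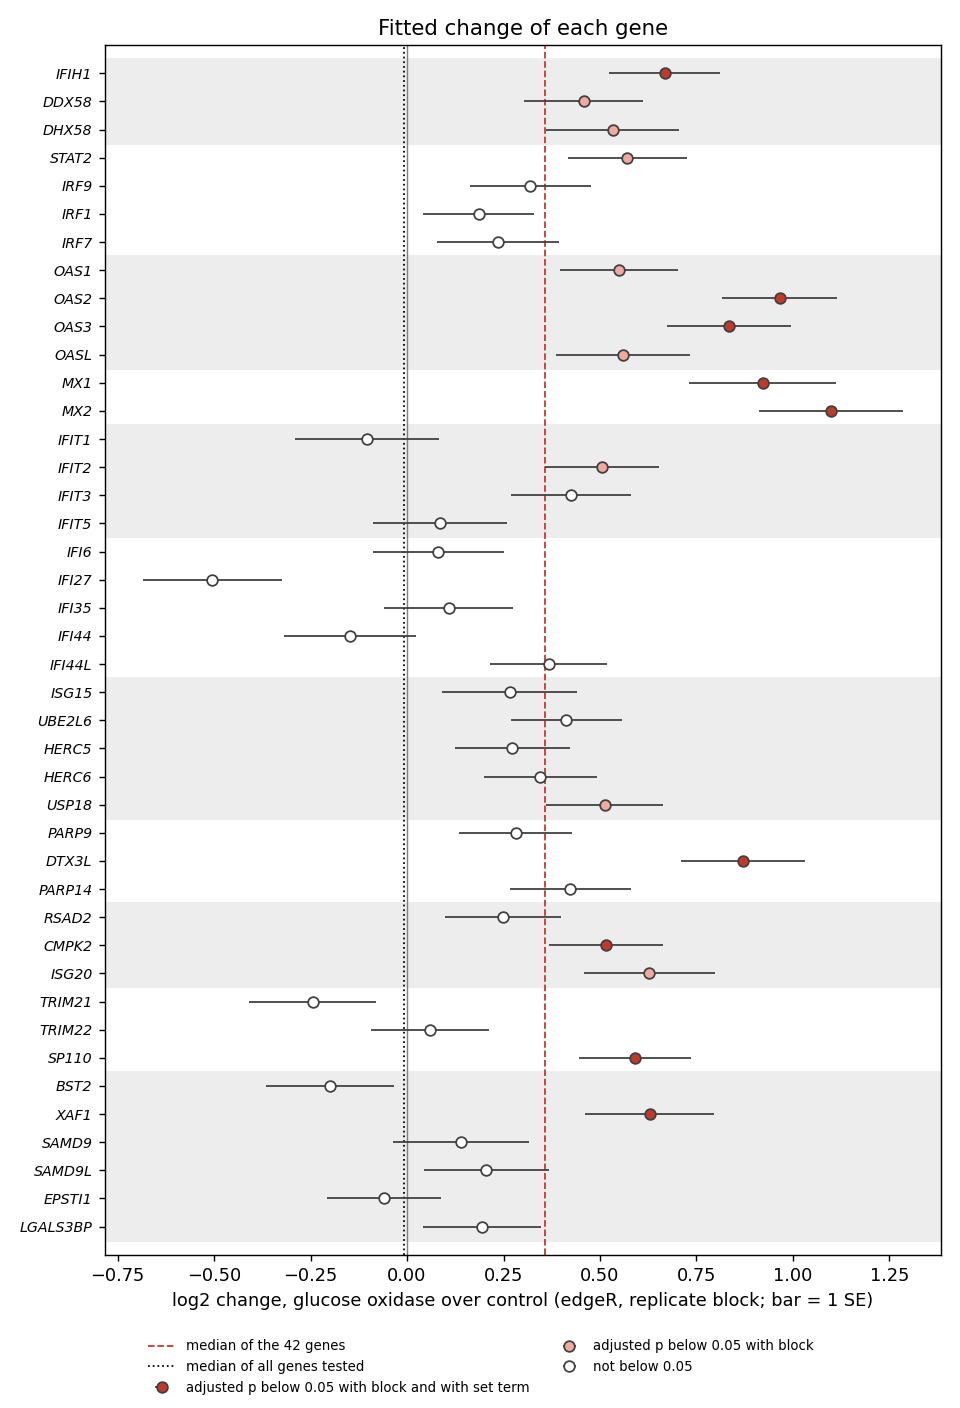
Fitted log2 change of each of the 42 genes, glucose oxidase over control, in edgeR's fit with the replicate block, with bars of 1 SE and bands by role. The 17 filled points passed an adjusted p of 0.05, the 9 darkest of them also with the set term; the dashed line is the median of the 42 genes and the dotted line that of all genes tested.

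The values within pairs were not alike. The median log2 difference of the 42 genes within pairs 1 to 4 was 0.23, 0.083, 0.48 and 0.49, with 33, 23, 36 and 40 genes above 0, while the median of all genes lay between -0.013 and 0.00023. MX2 differed by 0.49, 0.60, 1.90 and 1.43 in pairs 1 to 4, MX1 by 0.13, 0.69, 1.70 and 1.18 and OAS2 by 0.76, 1.00, 1.22 and 0.89. OAS2 was thus higher in each pair by a similar amount, whereas the differences of MX1 and MX2 were largest in pairs 3 and 4. In 37 of the 42 genes the change was larger in replicates 3 and 4 than in 1 and 2. No share over all genes is given for this count, and a low level in controls 3 and 4 itself enlarges that change. In the test of that difference itself, the interaction of group and set in edgeR, none of the 42 passed, against 0.23% of all genes. At an unadjusted p under 0.05 it held 8 of the 42 (19%), against 8.4% of all genes, and DESeq2's interaction called 0. Fitted with the replicate block, the interaction passed for MX2 alone (1.11 ± 0.27, SE, adjusted p = 0.0377), against 0.902% of all genes.

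The baseline of these genes also differed between the untreated cultures, given here as a description with 2 libraries a side. In 30 of the 42 genes controls 3 and 4 were on average lower than controls 1 and 2, and in 12 of these by more than 2-fold. No share over all genes is given for these counts, so they do not tell whether the difference is particular to the 42 genes. The log2 ratio of controls 3 and 4 over controls 1 and 2 was -2.16 for MX2, -2.0 for MX1, -1.65 for ISG20, -1.62 for ISG15 and -1.56 for IFI35. In the other direction it was 1.33 for HERC5, 1.09 for SAMD9, 1.06 for SAMD9L, 0.64 for BST2 and 0.62 for IFI44. The direction between the untreated sets thus differed from gene to gene. Of the 17 genes that rose with glucose oxidase 15 were lower in controls 3 and 4, and so were 15 of the 25 others.

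**Figure D3:**
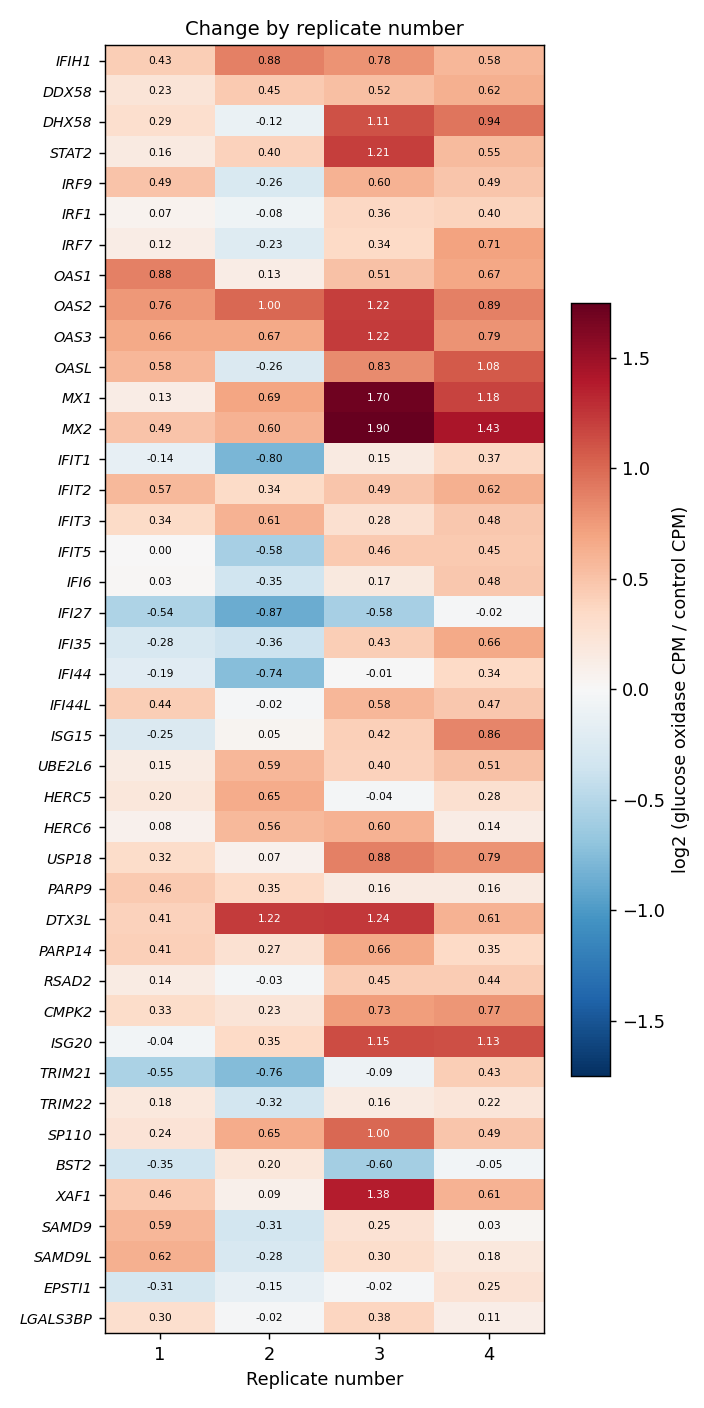
log2 ratio of CPM, glucose oxidase over the control of the same replicate number, for each of the 42 genes (rows, ordered by role) and replicate numbers 1 to 4 (columns). Red cells are higher and blue cells lower with glucose oxidase; columns 3 and 4 hold 36 and 40 genes above 0, column 2 holds 23.

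Levels between genes can be compared per length, in the deposited FPKM. The highest were IFI6 at 753 ± 223 FPKM with glucose oxidase and 722 ± 242 FPKM in controls, BST2 at 393 ± 78.0 FPKM with glucose oxidase and 467 ± 154 FPKM in controls, ISG15 at 459 ± 179.7 FPKM with glucose oxidase and 430.0 ± 295 FPKM in controls and IFI27 at 263 ± 61.8 FPKM with glucose oxidase and 368 ± 45.7 FPKM in controls (SD, n = 4 each). In controls BST2, ISG15 and IFI27 differed by less than the SD of ISG15, while the mean of IFI6 exceeded that of BST2 by more than the SD of either. The lowest were ISG20 at 4.93 ± 1.22 FPKM with glucose oxidase and 3.60 ± 2.24 FPKM in controls, DHX58 at 5.21 ± 1.06 FPKM with glucose oxidase and 3.93 ± 2.09 FPKM in controls and IRF9 at 5.14 ± 1.39 FPKM with glucose oxidase and 4.36 ± 2.17 FPKM in controls. The 2 Mx genes stood at 39.3 ± 15.6 FPKM with glucose oxidase and 24.3 ± 16.7 FPKM in controls for MX1 and 17.4 ± 7.26 FPKM with glucose oxidase and 9.77 ± 7.11 FPKM in controls for MX2. None of the 8 genes with the highest control FPKM (IFI6, BST2, ISG15, IFI27, IFIT1, IFI44, IFIT3 and SAMD9) passed the test. Over all genes 7.51% were called higher and 6.97% lower, so with so few genes none passing is near that share.

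Many of the 42 genes lie in tandem, and 11 pairs of members stood within 100000 bases of each other. The ratio of such neighbours within a library does not depend on the scaling between libraries, and it was added after the values had been seen, with the gene of larger fitted change on top, so that choice sets the sign. On chromosome 1, IFI44L (chr1:78619922-78646145) and IFI44 (chr1:78649796-78664078) had a log2 ratio of CPM of -0.59, -0.17, -0.94 and -1.06 with glucose oxidase, against -1.22, -0.89, -1.53 and -1.19 in controls. The ratio was higher with glucose oxidase in all 4 pairs, by 0.52 on average, with an exact two-sided permutation p of 0.0857 (0.47 adjusted over the 11 pairs; the smallest p this design allows is 0.0286). On chromosome 3, DTX3L (chr3:122564238-122575203) over PARP9 (chr3:122527924-122564577) had 0.12, 0.98, -0.73 and -0.85 with glucose oxidase, against 0.17, 0.10, -1.81 and -1.30 in controls, a difference of 0.59 (exact permutation p = 0.4). On chromosome 10, IFIT3 (chr10:89327894-89340971) over IFIT1 (chr10:89392546-89406486) differed by 0.53 (exact permutation p = 0.171). On chromosome 21, MX2 (chr21:41361943-41409390) over MX1 (chr21:41420304-41459214) differed by 0.18 (exact permutation p = 0.143), and in the OAS cluster on chromosome 12, OAS2 (chr12:112978395-113011723) over OAS3 (chr12:112938352-112973249) by 0.13 (exact permutation p = 0.514). CMPK2 over RSAD2 on chromosome 2 was higher with glucose oxidase by 0.19, 0.26, 0.29 and 0.33 in pairs 1 to 4 (exact permutation p = 0.514 unpaired and 0.125 within pairs). The chosen order favours higher ratios, some of the 11 share a gene, and no share over other gene pairs is given. The count that follows is therefore a description only. The ratio was higher in all 4 pairs for 5 of the 11, namely IFI44L over IFI44, IFIT3 over IFIT1, IFIT5 over IFIT1, CMPK2 over RSAD2 and SAMD9L over SAMD9. Each of these had an exact permutation p of 0.125 within pairs, the smallest that 4 pairs allow, so the paired test could not pass 0.05, and the unpaired test passed for none of the 11. Coordinates are those of the deposited table (GRCh38).

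**Figure D4:**
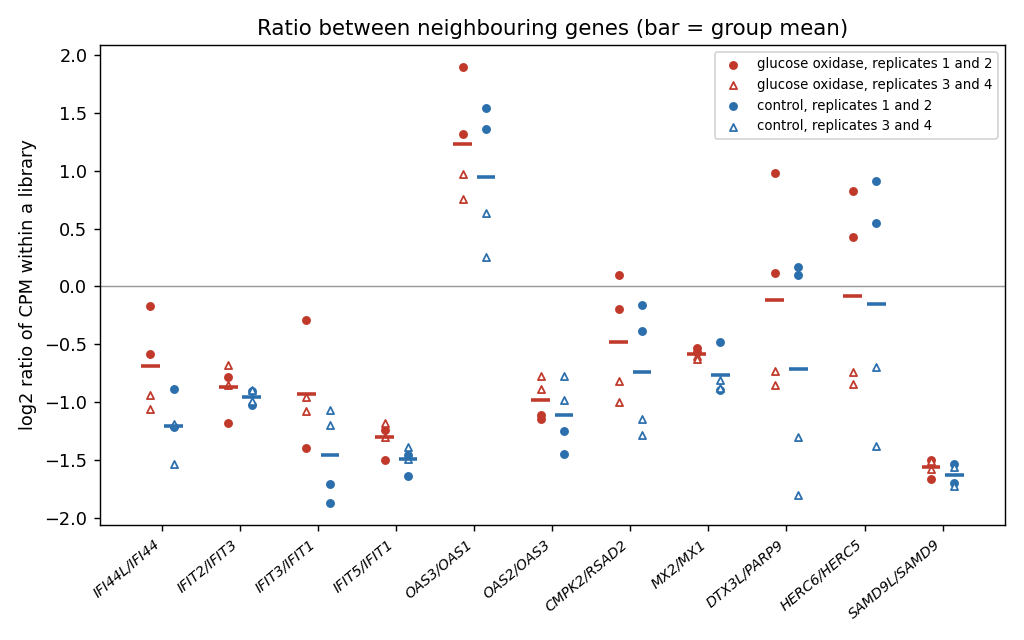
log2 ratio of CPM between neighbouring members within each library, for 11 pairs within 100000 bases, red with glucose oxidase and blue in controls, with a bar at each group mean. Circles are replicates 1 and 2 and triangles replicates 3 and 4. In OAS3/OAS1, OAS2/OAS3, CMPK2/RSAD2, DTX3L/PARP9 and HERC6/HERC5 the circles and triangles of a group lie farther apart than the group means.

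The pathway around the 42 genes was described with 69 further genes of interferon production, reception and response, of which 59 were tested. In the blocked fit 15 rose, 1 fell and 43 did not pass, against 7.51% of all genes called higher and 6.97% called lower. Their median log2 change was 0.21, against -0.0068 over all genes tested. With the set term 9 were higher and 1 lower, against 3.72% and 3.07% of all genes. With the block 11 were higher without replicate 1 (against 5.33% of all genes tested then) and 10 without replicate 2 (against 5.02%). Without replicate 3 there were 8 (against 3.34%), and without replicate 4 there were 10 (against 5.51%). Interferon transcripts were near or at 0. Of 12 interferon genes 9 were under the low-count filter. IFNB1 had 2 to 25 counts per library and 0.843, 0.321, 0.672 and 0.386 CPM with glucose oxidase, against 0.821, 0.747, 0.166 and 0.0961 CPM in controls, a log2 change of 0.38 ± 0.53 (SE; adjusted p = 0.692). IFNE, with a log2 change of -0.55 ± 0.37 (SE; adjusted p = 0.359), and IFNL1, with one of 0.43 ± 0.40 (SE; adjusted p = 0.514), did not pass either.

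Among the receptor chains IFNGR2, of the interferon gamma receptor, rose and the other 5 did not pass. IFNGR2 had 22.4, 24.4, 28.3 and 28.6 CPM with glucose oxidase, against 12.8, 15.2, 20.6 and 22.2 CPM in controls, a log2 change of 0.58 ± 0.14 (SE; adjusted p = 0.00727), the lowest treated library lying just above the highest control. Counts of TMEM50B, which overlaps IFNGR2 on the opposite strand, equalled 152% of those of IFNGR2. JAK1, a kinase of the receptor, also rose, by 0.52 ± 0.15 (SE; adjusted p = 0.0175), and counts of RAVER2 on the opposite strand equalled 26.2% of its own. SOCS3, a feedback inhibitor of JAK kinases, had 11, 9.85, 12.4 and 13.9 CPM with glucose oxidase, against 5.27, 7.86, 7.25 and 8.03 CPM in controls, a log2 change of 0.74 ± 0.17 (SE; adjusted p = 0.00531), with no overlap between groups.

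Of 23 further antiviral effectors 9 rose and 1 fell, against 7.51% of all genes that rose and 6.97% that fell. ADAR, which edits adenosine in double-stranded RNA, had 367, 609, 292 and 254 CPM with glucose oxidase, against 214, 313, 147 and 189 CPM in controls, a log2 change of 0.79 ± 0.16 (SE; adjusted p = 0.00145). IFITM1, which blocks membrane fusion of entering viruses, had 130.4, 120.0, 108 and 104 CPM with glucose oxidase, against 57.3, 98.8, 60.7 and 61.4 CPM in controls, a log2 change of 0.76 ± 0.15 (SE; adjusted p = 0.00148), with every treated library above every control. IFITM2 spans IFITM1 in the annotation, and its counts equalled 2.12% of those of IFITM1. RTP4, a receptor trafficking protein that interferon induces, had 77.7, 41.6, 141 and 114 CPM with glucose oxidase, against 130.4, 93.9, 227 and 152 CPM in controls, a log2 change of -0.75 ± 0.15 (SE; adjusted p = 0.00154), and was the 1 gene of the pathway list that fell. EIF2AK2, which encodes the RNA-dependent kinase PKR, had a log2 change of 0.57 ± 0.15 (SE; adjusted p = 0.0105), TRIM14 one of 0.55 ± 0.14 (SE; adjusted p = 0.0105), N4BP1 0.52 ± 0.14 (SE; adjusted p = 0.0118), PNPT1 0.49 ± 0.14 (SE; adjusted p = 0.0222), PML 0.50 ± 0.15 (SE; adjusted p = 0.0226), IFITM3 0.53 ± 0.16 (SE; adjusted p = 0.0275) and PLSCR1 0.47 ± 0.14 (SE; adjusted p = 0.0287). Opposite-strand counts equalled 58.3% of those of TRIM14 (NANS) and 16.1% of those of EIF2AK2 (GPATCH11). Of the sensors and adaptors TICAM1, the adaptor of TLR3, rose by 0.58 ± 0.15 (SE; adjusted p = 0.0108) and the nucleic acid sensor ZBP1 by 0.81 ± 0.25 (SE; adjusted p = 0.0288). ZBP1 differed by 0.19, -0.10, 2.25 and 1.47 in pairs 1 to 4, so the difference lay in pairs 3 and 4. With the set term ZBP1 (adjusted p = 0.0766), JAK1, PNPT1, PML, IFITM3 and PLSCR1 did not pass.

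**Figure D5:**
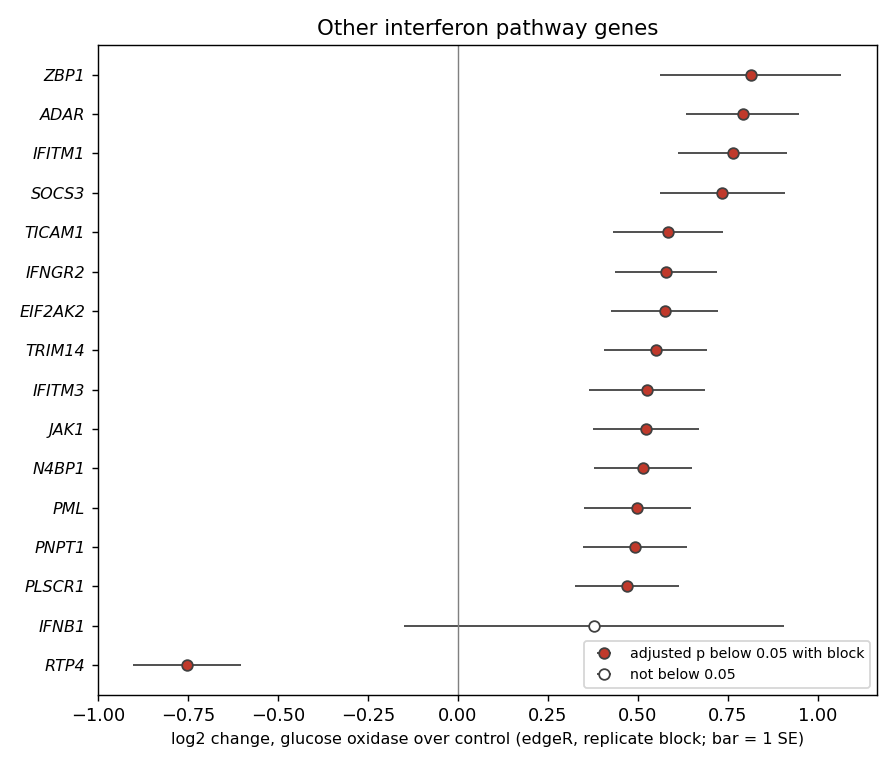
Fitted log2 change, glucose oxidase over control, of 15 of the 16 genes of the pathway list that passed and of IFNB1, in edgeR's fit with the replicate block, with bars of 1 SE. RTP4 is the 1 filled point below 0, and the bar of IFNB1 spans 0.

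Other properties of the libraries moved with the groups. Epithelial and urothelial markers were abundant in all libraries, with a summed FPKM of 1010 to 1200 with glucose oxidase and 1410 to 1890 in controls. The largest in that sum were 3 keratins. KRT19 averaged 361 FPKM with glucose oxidase and 664 FPKM in controls, KRT7 248 and 319 FPKM and KRT8 171 and 258 FPKM. Of 10 tested, GATA3 rose and KRT5, KRT8 and KRT19 fell, against 7.51% of all genes called higher and 6.97% called lower. With the set term KRT5 (adjusted p = 0.0113) and KRT19 (adjusted p = 0.0117) passed. GATA3 (adjusted p = 0.0614) and KRT8 (adjusted p = 0.0998) did not. The uroplakin UPK3A, which was under the low-count filter, had 0 to 2 counts per library. In such bulk RNA fewer cells of a type and less RNA per cell cannot be told apart. The 8 leukocyte markers summed to 1.89 to 2.54 FPKM with glucose oxidase and 2.66 to 3.81 FPKM in controls, with 0 to 5 counts per library for PTPRC, the pan-leukocyte marker, and for CLEC4C, a marker of plasmacytoid dendritic cells. The largest in that sum was CD14, at 1.59 FPKM with glucose oxidase and 2.12 FPKM in controls. It had 63 to 99 counts per library and did not pass (log2 change -0.42, adjusted p = 0.234). CSF1R, a macrophage receptor, had 50 to 113 counts per library and fell, by -0.90 ± 0.23 on the log2 scale (SE; adjusted p = 0.00883 with the block and 0.0172 with the set term), with every treated library below every control; its part in the results was not tested. The 5 fibroblast markers summed to 1.47 to 2.57 FPKM with glucose oxidase and 1.66 to 2.6 FPKM in controls, and the 4 endothelial markers to 0.377 to 0.946 FPKM with glucose oxidase and 0.496 to 0.812 FPKM in controls. The largest fibroblast marker was COL1A1, at 1.86 FPKM with glucose oxidase and 2.02 FPKM in controls. Epithelial markers thus did not all move the same way, and the part of their differences in the changes above was not tested. Fold changes also ran with gene length over all genes, with a median log2 change of 0.18 in the longest 10% of genes and -0.19 in the shortest 10%. The 42 genes had a median length of 4800 bases, the 17 that rose 5868 and the other 25 4147, and with an offset for length in the blocked fit 19 were called higher, all 17 among them, against 5.86% of all genes.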

How the data were processed

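RNA-seq of 4 glucose oxidase and 4 control cultures was analysed from the authors' processed tables. The submitters' processing notes name featureCounts 1.5.0-p3, HISAT2 2.0.5, GRCh38.p13 and DESeq2 1.20.0, with no strand setting. Raw counts per gene were deposited without normalisation. FPKM, as the authors deposited them, correct for gene length and library size. The authors' comparison table holds their normalised signal as a mean per group, which was not used, and their log2 fold change and p-value per gene, printed only where named. Another 24 per-sample columns were not used.

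The 42 members, the other lists and the alternatives were chosen with earlier results of these data known. Counts were tested with edgeR 4.0.16 (R 4.3.3) by glmQLFit and glmQLFTest after TMM scaling and filterByExpr, with Benjamini-Hochberg adjusted p over all 17413 genes and a threshold of 0.05; DESeq2 1.42.0 was an alternative. The SE given with an edgeR change is its absolute value divided by the square root of the quasi-likelihood F statistic. The planned fit had group as its only term. Deviations from the group means correlated by 0.503 to 0.678 between libraries of the same number, so the number was also fitted as a block. Libraries of different numbers within replicates 1 and 2 or 3 and 4 correlated by 0.443 to 0.652, and across these sets by -0.678 to -0.402. The ranges for equal numbers and for different numbers within a set overlap, so these correlations do not tell a pairing by number from the division into sets. Libraries of a group all differed by more than counting noise (chi-square over its degrees of freedom 10.9 to 260). p-values measure only the spread between these cultures. The edgeR fits without a block, with the block and with the set term were tested on simulated data, and the DESeq2 fits were not.

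Values in every library are printed for members whose groups do not overlap and for the 16 called members of smallest adjusted p. Up to 15 called genes of the pathway list are named by rule, and ZBP1 was added after its values were seen; IFNB1 was named regardless. A further called gene of that list is counted but not reported here. Promoters come from RefSeq (GRCh38.p14).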

Additional observations from a re-analysis of the deposited data

Results flagged for a closer look

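Among 118 groups of 4 libraries, taken gene by gene over the 42 members, the called pathway genes and IFNB1, 5 held a library whose gap to the nearest of the other 3, divided by the group's range, was above Dixon's critical value. Chance alone flags about 5% of groups, so a count of this size is near what chance gives. OASL was at 130.1 CPM in glucose oxidase replicate 2, with the other 3 treated libraries between 193 and 200.1 CPM. IFI6 was at 949.7 CPM in glucose oxidase replicate 1, with the others between 526 and 597 CPM. JAK1 was at 151 CPM in glucose oxidase replicate 2, with the others between 89.7 and 91.7 CPM. TICAM1 was at 28.9 CPM in the same library, with the others between 16.1 and 18.1 CPM. IFITM1 was at 98.8 CPM in control replicate 2, with the other 3 controls between 57.3 and 61.4 CPM.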

How the results depend on the processing

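With group as the only term and the low-count filter, no member, pathway gene or other gene passed in edgeR. With the replicate block 17 members were called higher, 15 pathway genes higher and 1 lower, and 1308 of all genes higher and 1213 lower. The set term gave 9 members, 9 and 1 pathway genes, and 648 and 534 of all genes. DESeq2 without a block gave 1 member and 35 and 39 of all genes. With the block DESeq2 gave 19 members higher and 1 lower, 15 and 1 pathway genes, and 1210 and 1301 of all genes. Total counts with the block gave 21 members, 18 and 1 pathway genes, and 1675 and 535 of all genes. Without the low-count filter the counts over all genes were 18 and 16 with no block; with the block they were 17 members, 15 and 1 pathway genes, and 1317 and 976. A gene length offset with the block gave 19 members, 12 and 1 pathway genes, and 1020 and 1174. Leaving out a single library in the fit without a block gave 0 members in every case, as with all libraries. Leaving out replicate 1, 2, 3 or 4 in the fit with the block gave 13, 18, 7 and 7 members higher. Pathway genes were then 11, 10, 8 and 10 higher and 1 lower each time. Of all genes 917, 864, 593 and 978 were higher and 717, 638, 507 and 908 lower. The difference between replicate sets held 1 member (MX2) with the block, against 0.902% of all genes.

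Signs turned only in members with small estimates; the cause was not tested. IFIT1 was 0.012 with total counts and 0.0089 with the block added, IFI44 0.056 with total counts, and EPSTI1 0.023 and 0.051. TRIM22 was -0.0047 with the length offset. IFI35 was 0.11 with the block, 0.11 with the set term, 0.10 in DESeq2 with the block, 0.22 with total counts and the block, 0.13 without filter and with the block, and 0.23 with the length offset. The next ranges pool both kinds of leaving out, single libraries without a block and replicate numbers with it. In these, log2 changes ran from -0.26 to 0.16 for IFIT1, -0.042 to 0.35 for IFIT5, -0.17 to 0.32 for IFI6, -0.29 to 0.37 for IFI35, -0.31 to 0.22 for IFI44, -0.21 to 0.66 for ISG15, -0.023 to 0.55 for HERC5, -0.10 to 0.30 for TRIM22, -0.11 to 0.40 for SAMD9, -0.074 to 0.48 for SAMD9L and -0.16 to 0.082 for EPSTI1.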
